A study of Mus musculus with 20 samples.

Results

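Livers of sham-operated mice, which had no bile duct ligation and so no cholestasis, were compared between STING knockout and wild type. The comparison takes 10 of the 20 libraries of the study, 5 from sham-operated wild-type mice and 5 from sham-operated STING knockout mice. Genes entered it when they reached 0.5 FPKM (fragments per kilobase of exon, scaled to mapped fragments) in at least 5 of these 10 libraries, which held for 12714 of the 54532 gene entries in the deposited table. The other 10 libraries came from mice of the same 2 genotypes whose bile duct had been ligated for 7 days, and they are used only where the same genes are looked up in them. All libraries were made from polyadenylated RNA of whole liver. Sham surgery was common to both genotypes compared. The strain, age and sex of the mice, the cells that lack STING, the deleted part of its gene and the hour of sampling are not stated by the labels used here.

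STING, encoded by Tmem173, is a membrane protein of the endoplasmic reticulum. The enzyme cGAS makes a cyclic dinucleotide when it meets DNA in the cytosol, and STING binds that messenger and recruits the kinase TBK1, which activates the transcription factor IRF3. IRF3 switches on type I interferon genes. Secreted interferon then acts through its receptor and through a complex of STAT proteins and IRF9 that binds interferon-stimulated response elements in the promoters of many genes for antiviral and antigen-presenting proteins. In liver the gene is known to be active mainly in Kupffer cells and other non-parenchymal cells.

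Gene-assigned fragments numbered 15.1 to 20.9 M per library, and for a transcript of 1 kilobase 1 fragment equalled 0.0499 to 0.072 FPKM. Their FPKM values summed to 393884 to 439211 in wild type and 408397 to 547332 in knockout, the highest being Sham_KO_2347. In a principal component analysis of these 10 libraries the leading component (38.7% of the variance) set 5 libraries with Y-linked transcripts apart from 5 libraries with Xist, the transcript of the inactive X chromosome. Of the wild-type libraries 2 carried Y-linked transcripts (Sham_Wt_2223 and Sham_Wt_2224) and 3 carried Xist (Sham_Wt_2227, Sham_Wt_2228 and Sham_Wt_2229). Of the knockout libraries 3 carried Y-linked transcripts (Sham_KO_2347, Sham_KO_2349 and Sham_KO_2350) and 2 carried Xist (Sham_KO_2352 and Sham_KO_2353). The second component, with 18.7% of the variance, separated the genotypes, from 11.3 to 23.1 in wild type and from -27.7 to -5.69 in knockout. Nnt, a gene that the C57BL/6J substrain has in a partly deleted form, was at 0.0614 to 0.171 FPKM throughout. Below, values per library are given in the order of names just used, wild type first.

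Tmem173 itself (ENSMUSG00000024349.10, chromosome 18, 35733679 to 35740554, minus strand of GRCm38) was low in both genotypes. It measured 1.87, 0.843, 1.79, 1.69 and 2.34 FPKM in the wild-type libraries and 1.06, 0.617, 0.588, 0.718 and 0.73 FPKM in the knockout libraries. The knockout value of Sham_KO_2347 lay above the wild-type value of Sham_Wt_2224, so the groups overlapped, while the other 4 knockout libraries lay below every wild-type library. The mean was 1.71 ± 0.544 FPKM (SD, n = 5) in wild type and 0.743 ± 0.189 (SD, n = 5) in knockout, a difference of -0.80 on the scale of log2(FPKM + 0.5), with a two-sided exact permutation p of 0.0159 where the smallest possible is 0.00794. In the fit over all genes the adjusted p was 0.0302, and removing any 1 of 8 libraries raised it to between 0.0586 and 0.0782. Transcript left in the knockout libraries therefore checks their labels only in part, since the deleted part of the gene is unknown here. Of 91 genes tested within 10 Mb of Tmem173, 3 passed the test, Tmem173 among them, or 3.3%, beside 6.39% of all tested genes.

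Across the liver transcriptome the knockout was marked by a low level of interferon-stimulated genes, by a shift among the genes of the circadian clock, and by a high level of Cdkn1a, of heat shock chaperones and of some genes of fatty acid oxidation. Of the 12714 genes tested, 813 (6.39%) passed an adjusted p of 0.05 in limma. Lower in knockout were 474 (3.73%), 111 of them by at least 1 log2 unit, and higher were 339 (2.67%), 40 of them by as much. The ranges of the 2 groups did not overlap, with knockout lower, in 593 genes (4.66%), and with knockout higher in 476 (3.74%). These shares are the background for all counts of list members below. Differences are given throughout as mean log2(FPKM + 0.5) in knockout minus wild type ± standard error with n = 5 per group, a scale that understates the change of genes with low values. The median of all tested genes was 0.02.

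The split between higher and lower genes depended on the scaling. When each library was rescaled to the same FPKM total (TPM), the median of all genes moved to -0.10, and 14.1% of 813 called genes were higher, against 41.7% as deposited; 573 genes were called both ways. Of the 84 called genes named below, none changed sign under any of 24 other settings. The number of calls fell to 405 without Sham_Wt_2227, to 457 without Sham_Wt_2228 and to 536 without Sham_Wt_2229. A fit of only the 5 libraries with Y-linked transcripts gave 33 calls, 29 of them among the 813. With only the 5 carrying Xist it gave 386, 235 of them among the 813.

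**Figure D1:**
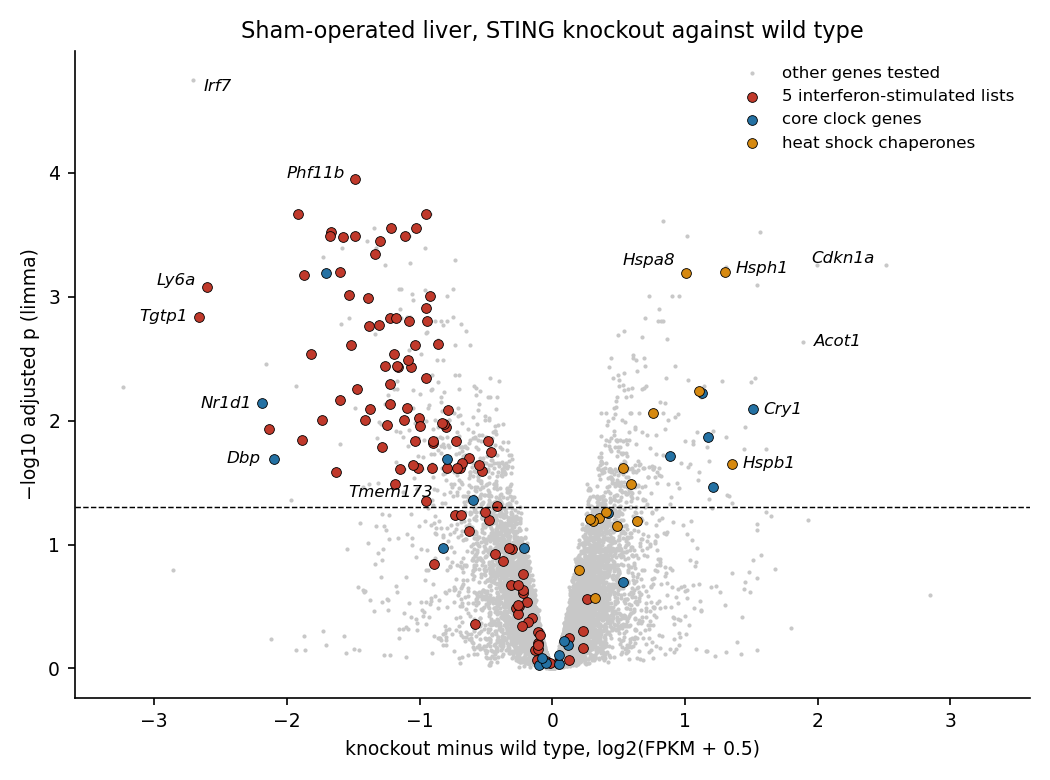
Each point is 1 of the 12714 tested genes, with the difference of mean log2(FPKM + 0.5) between knockout and wild type on the x axis and -log10 of the adjusted p from limma on the y axis; the dashed line marks 0.05. Members of the 5 interferon-stimulated lists (red) lie mostly on the left above the line, clock genes (blue) on both sides, and heat shock chaperones (orange) on the right.

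Interferon-stimulated response elements have a short core that can be looked for in promoters. The letters GAAANNGAAA were searched on both strands, the reverse being TTTCNNTTTC, in windows from 250 bases before to 50 after each gene's start taken from RefSeq (GRCm38.p6), where matches may overlap each other. The core was found in 3.44% of all 32851 windows and in 3.82% of the 9002 tested genes that have a window. It was found in 59 of 359 genes called lower with a window (16.4%), against 4 of 260 genes called higher (1.54%). Among members of the 5 interferon-stimulated lists described next, 32 of 59 called lower (54.2%) held it, and 8 of 26 that were not called (30.8%). Outside these lists the share among genes called lower was 9% (27 of 300). The following stretches from genes called lower are shown because they carry that core, in capitals, just before the start of the gene; where 2 or more matches overlap or lie close, all are in capitals.
Tgtp1, chr11:48992294-48992343, minus strand: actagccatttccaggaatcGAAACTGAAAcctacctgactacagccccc
Gbp3, chr3:142559979-142560034, plus strand: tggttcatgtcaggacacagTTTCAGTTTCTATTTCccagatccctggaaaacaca
Isg15, chr4:156200855-156200916, minus strand: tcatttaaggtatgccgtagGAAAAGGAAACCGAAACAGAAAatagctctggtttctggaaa
Oas1a, chr5:120907526-120907565, minus strand: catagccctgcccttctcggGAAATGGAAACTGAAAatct
Phf11b, chr14:59341351-59341400, minus strand: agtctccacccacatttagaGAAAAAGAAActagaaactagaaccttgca
Bst2, chr8:71537567-71537622, minus strand: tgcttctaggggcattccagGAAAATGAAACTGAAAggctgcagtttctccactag
Trim30a, chr7:104465200-104465249, minus strand: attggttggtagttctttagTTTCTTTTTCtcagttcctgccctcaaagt
The core ended 67 bases before the start of Tgtp1, 29 before that of Gbp3, 56 before that of Isg15, 4 before that of Oas1a, 40 before that of Phf11b, 114 before that of Bst2 and 26 before that of Trim30a. A match describes letters in the window and shows no binding. Isg15 was chosen for display after its values had been seen.

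The interferon-stimulated genes were described by 5 lists (antiviral effectors, interferon-induced GTPases, ISG15 conjugation with ubiquitin ligases and PARPs, the Schlafen family and other interferon-stimulated genes), with 127 members in the table. Of these 116 passed the filter on low values, and the other 11 did not exceed 0.937 FPKM in any of the 10 libraries. In knockout 77 of the 116 were called lower and none higher, beside the 3.73% of all tested genes that were called lower. In all, 110 of the 116 differences were below 0, and their median was -0.91 beside 0.02 over all genes. Of the tested members, 6 were under 0.5 FPKM in all knockout libraries and so had passed the filter through wild type. Of the 98 members at or above 0.5 FPKM in all 10 libraries, 63 were called lower. The median member stood at 2.50, 2.31, 2.85, 2.84 and 3.00 log2(FPKM + 0.5) in the wild-type libraries and at 1.78, 1.72, 1.87, 2.07 and 1.93 in the knockout libraries. Every wild-type library thus lay above every knockout library, and in wild type the 2 libraries with Y-linked transcripts lay below the 3 with Xist. Within the libraries carrying Y-linked transcripts the median difference was -0.72, and within those carrying Xist it was -0.98. The number called lower ranged from 62 to 78 when each library was left out in turn.

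**Figure D2:**
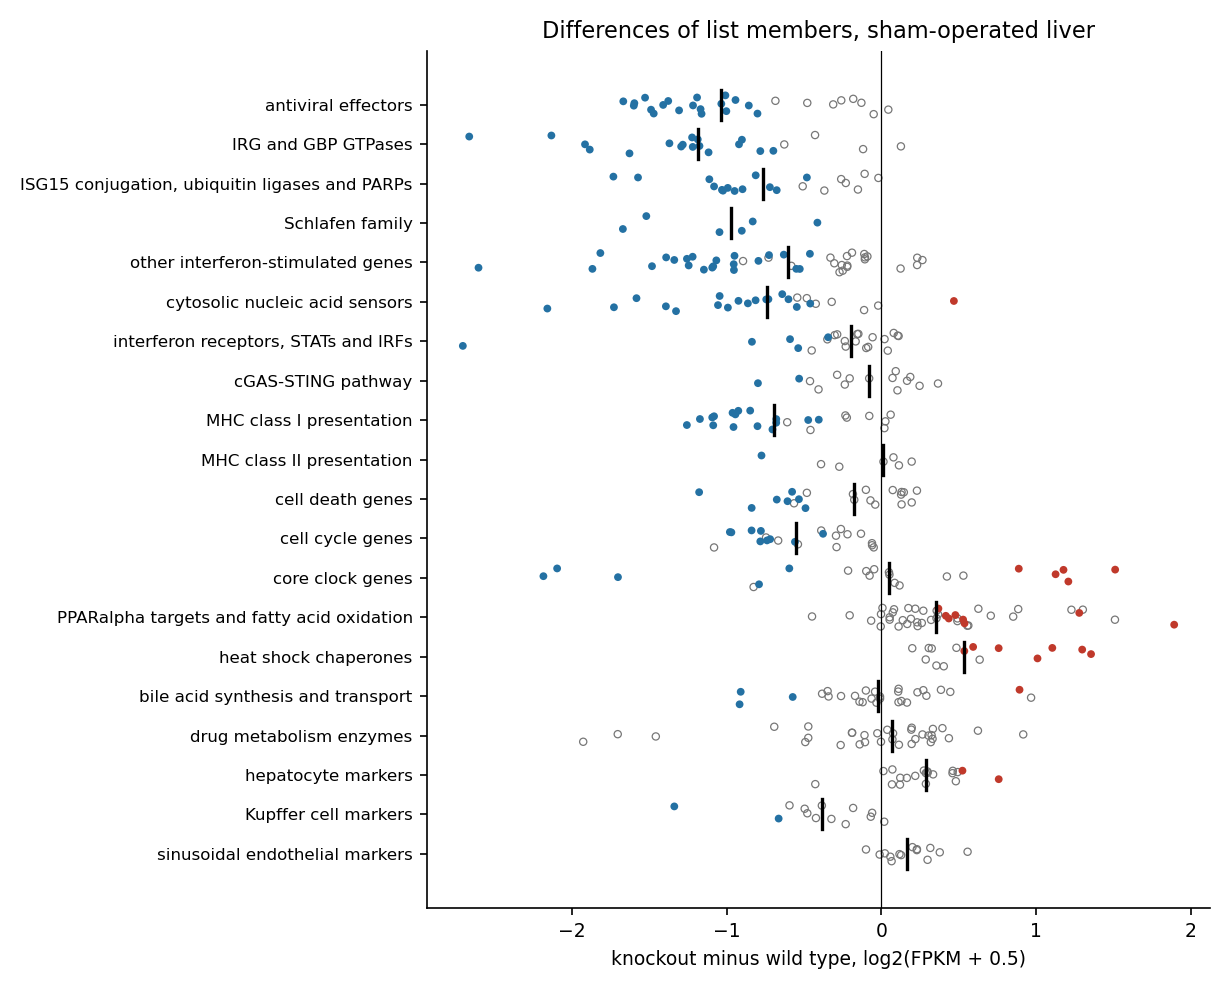
Each point is a tested member of the gene list named on the left, placed by its difference of mean log2(FPKM + 0.5), knockout minus wild type; filled points passed the test (blue lower, red higher), open points did not, and bars mark the median of each list. The interferon-stimulated lists, nucleic acid sensors and class I presentation genes lie left of 0, and heat shock chaperones and fatty acid oxidation genes right of it.

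Among the transcription factors and receptors of the interferon pathway, Irf7 stood out. Irf7, the factor that amplifies type I interferon production and is itself interferon-stimulated, measured 54.9, 49.8, 76.4, 59.3 and 59.0 FPKM in wild type and 8.85, 9.44, 6.68, 11.4 and 7.58 FPKM in knockout. The lowest wild-type library was above the highest knockout library by several fold. Its mean fell from 59.9 ± 9.99 to 8.80 ± 1.82 FPKM (SD, n = 5 each), 6.81-fold, with a log2 difference of -2.71 ± 0.15 (limma adjusted p = 1.78e-05). Irf7 lies on chromosome 7 from 141262706 to 141266481 on the minus strand. Irf9, the DNA-binding part of the interferon-stimulated complex, measured 12.5 to 17.2 and 8.01 to 9.39 FPKM, with a difference of -0.59 ± 0.09 (adjusted p = 0.00526). The groups did not overlap. Of 22 tested members of the list of interferon receptors, STATs and IRFs, 5 were called lower and none higher, with a median of -0.20; without any 1 of Sham_Wt_2224, Sham_Wt_2227, Sham_Wt_2228, Sham_KO_2352 and Sham_KO_2353, 3 were called.

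Upstream of interferon, 2 of 15 tested cGAS-STING pathway genes were called lower, the targeted gene Tmem173 and Samhd1, and none higher. Over all tested genes 3.73% were called lower and 2.67% higher. The median difference of the 15 was -0.08. Samhd1, which degrades deoxynucleotides and limits cytosolic DNA, averaged 5.09 ± 0.983 FPKM in the wild-type libraries and 3.34 ± 0.47 in those of knockout (SD, n = 5 each; adjusted p = 0.0344), and removing any 1 of 7 libraries raised its adjusted p to between 0.0629 and 0.0887. The interferon genes themselves were hardly measured in either genotype. None of 21 interferon genes in the table passed the filter, 18 were at 0 in all 10 libraries, and the highest value of any was 0.358 FPKM, for Ifnk. At this depth a difference in interferon transcripts was not detectable.

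Antiviral effectors were low as a group, with 19 of 27 tested members called lower, none higher, and a median difference of -1.04. The oligoadenylate synthetase family makes the 2-5A messenger that activates RNase L, and its relatives include Oasl1 and Oasl2. Oas1a measured 7.73, 6.46, 11.6, 9.34 and 12.1 FPKM in wild type and 3.17, 2.53, 2.77, 3.20 and 2.01 in knockout. Oas3 measured 1.5 to 2.39 FPKM in wild type and 0.275 to 0.629 in knockout, the highest of these in Sham_KO_2352. Both were without overlap, with differences of -1.60 ± 0.17 (adjusted p = 0.000629) and -1.49 ± 0.14 (adjusted p = 0.000324). Oasl2 and Oasl1 were lower too, by differences of -1.67 ± 0.15 and -1.22 ± 0.11. Bst2, or tetherin, which holds budding viruses at the cell surface, measured 372, 293, 472, 454 and 449 FPKM in wild type and 232, 155, 138, 192 and 176 in knockout, a fall of 1.19 ± 0.17 at a level far above that of the synthetases in FPKM.

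The guanylate-binding proteins and immunity-related GTPases attack the vacuoles of intracellular pathogens. Of 21 tested members, 17 were called lower, none higher, and the median was -1.19. Tgtp1, an immunity-related GTPase, measured 5.93, 3.99, 13.3, 5.03 and 10.1 FPKM in wild type and 0.517, 0.288, 0.926, 1.17 and 0.699 in knockout. It was the second largest decrease among protein-coding genes named by the rule, at -2.67 ± 0.32 (adjusted p = 0.00145), a 10.7-fold difference of means. Gbp3 measured 9.10, 7.95, 30.2, 18.2 and 20.9 FPKM in wild type and 2.49, 2.39, 2.29, 6.07 and 3.35 in knockout. The wild-type values of Gbp3 were spread widely, with the 2 libraries carrying Y-linked transcripts lowest, and the difference was -2.13 ± 0.38 (adjusted p = 0.0116). Gbp10 and Tgtp2 were lower by differences of -1.92 ± 0.16 and -1.29 ± 0.13. These are families of close paralogs that share reads, so single members are uncertain.

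ISG15 is a ubiquitin-like protein that interferon couples to other proteins. In its list with ubiquitin ligases and PARPs, 13 of 20 tested members were called lower and none higher, with a median of -0.77. Isg15 measured 32.1, 20.3, 48.2, 26.7 and 58.2 FPKM in wild type and 13.3, 8.65, 10.2, 13.7 and 6.26 in knockout, with a difference of -1.73 ± 0.30 (adjusted p = 0.00996). Usp18, the protease that removes ISG15 and dampens receptor signalling, measured 9.65 to 18.0 FPKM in wild type and 3.39 to 4.42 in knockout, with a difference of -1.57 ± 0.15. Parp12, an interferon-induced mono-ADP-ribosyltransferase, and Rnf213, a large ubiquitin ligase, had little spread within the groups. Parp12 fell from 15.2 ± 1.58 to 7.19 ± 0.616 FPKM and Rnf213 from 8.85 ± 0.549 to 3.86 ± 0.607 (SD, n = 5 each). Trim30a, a ubiquitin ligase, fell by 1.08 ± 0.14.

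Among cytosolic sensors of nucleic acids, 17 of 24 tested members were called lower and 1 higher, with a median of -0.74. Zbp1, which senses Z-form nucleic acid and can start necroptosis, measured 7.53, 6.39, 16.4, 12.1 and 21 FPKM in wild type and 2.06, 1.53, 2.25, 3.17 and 2.20 in knockout, a difference of -2.16 ± 0.30 (adjusted p = 0.00346). Ddx60, a helicase that assists RNA sensing, fell by 1.39 ± 0.14. Mov10, an RNA helicase, was the steadiest, at 7.28 to 8.76 FPKM in wild type and 3.6 to 4.24 in knockout (-0.92 ± 0.07, adjusted p = 0.000213). The member that rose was Mavs, the mitochondrial adaptor of RNA sensing, named after its value was seen, which measured 22 to 28.5 FPKM in wild type and 30.3 to 37.0 in knockout (0.47 ± 0.09, adjusted p = 0.013); as TPM no member was called higher.

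All 6 tested Schlafen genes, interferon-induced regulators of growth and of viral replication, were called lower, with a median of -0.97. Slfn1 measured 1.51, 1.33, 1.85, 1.89 and 2.46 FPKM in wild type and 0.232, 0.267, 0.0692, 0.375 and 0.167 in knockout. Slfn4 measured 0.873, 0.777, 1.35, 0.648 and 2.14 FPKM in wild type and 0, 0.0358, 0.0651, 0.112 and 0.0471 in knockout. Both were under 0.5 FPKM in all knockout libraries, close to the value of a few fragments, so they had passed the filter through wild type alone, the count of 6 rests in part on them, and their size of change is uncertain. The ranges of the groups did not overlap, with knockout lower, in 4 of the 6, beside 4.66% of all tested genes. Slfn9 measured 1.73 ± 0.188 and 0.774 ± 0.282 FPKM (SD, n = 5 each). Without any 1 of Sham_Wt_2227, Sham_Wt_2228 and Sham_Wt_2229, 3 of the 6 were called.

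Of 42 tested members of the list of other interferon-stimulated genes, 22 were called lower and none higher, with a median of -0.61. Ly6a, the stem cell antigen Sca-1, measured 53.4, 40.4, 112, 70.9 and 58.5 FPKM in wild type and 9.68, 7.37, 8.19, 17.2 and 9.66 in knockout, a difference of -2.61 ± 0.28 (adjusted p = 0.000829). Phf11b, a nuclear protein, measured 4.19 to 5.27 and 1.13 to 1.64 FPKM and had the smallest adjusted p in the list, 0.000113, at -1.48 ± 0.10. Lgals3bp, a secreted galectin-3-binding glycoprotein, was among the least variable, at 47.8, 42.0, 50.5, 51.6 and 48.6 FPKM in wild type and 23.1, 25.3, 23.9, 25.5 and 24.9 in knockout. These narrow groups differed by -0.95 ± 0.08 (adjusted p = 0.000213). Xaf1, a pro-apoptotic protein, fell by 1.34 ± 0.14, and for Ifi44 and Ifi27l2a the differences were -1.87 ± 0.21 and -1.82 ± 0.25.

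**Figure D3:**
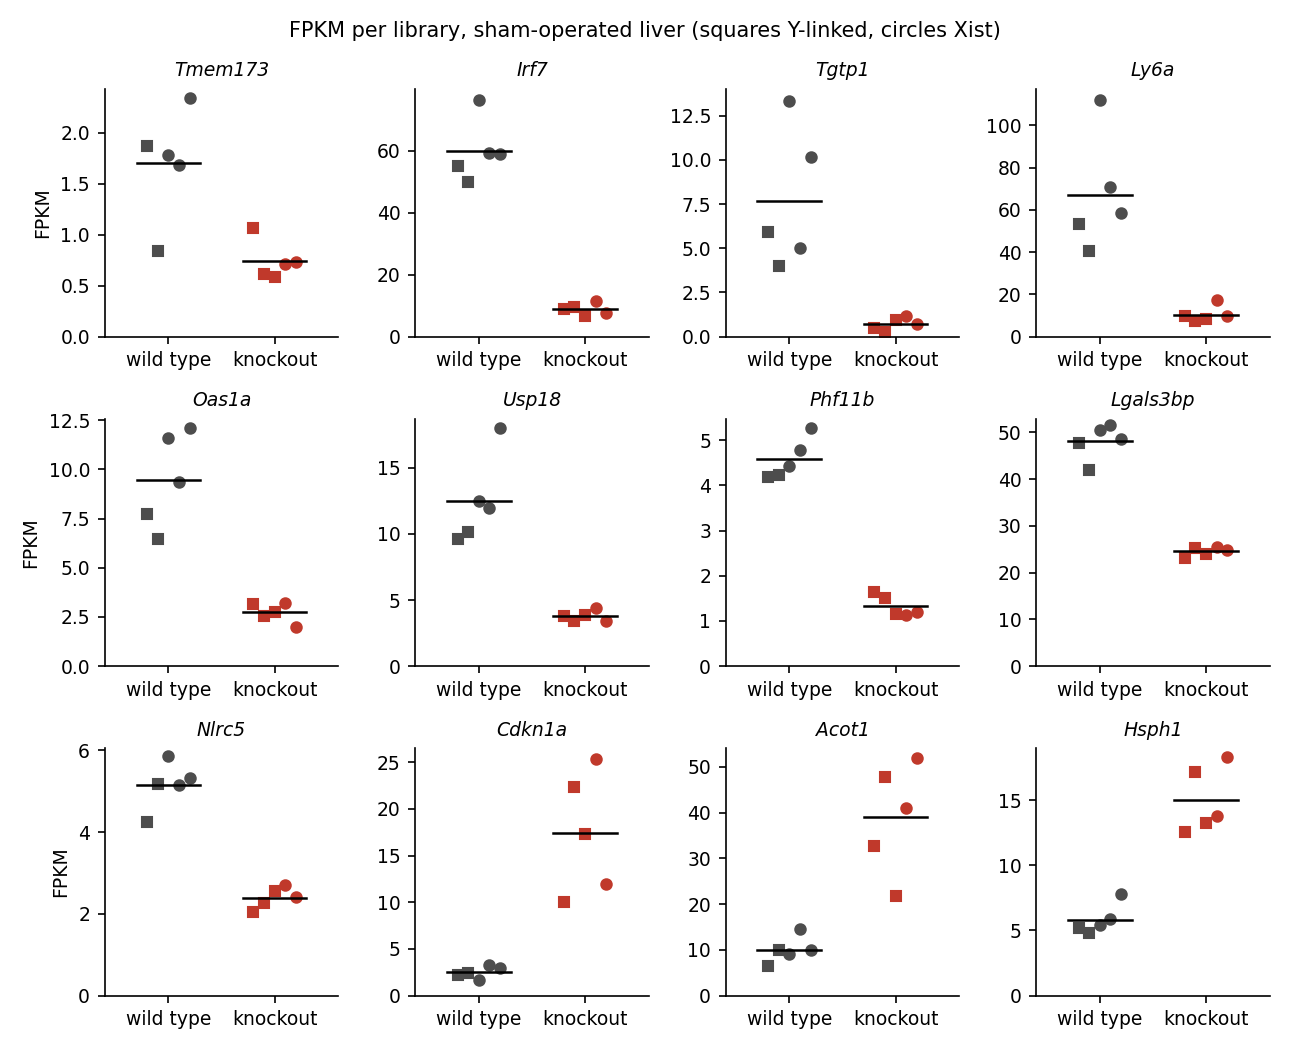
FPKM of 12 genes in each of the 5 wild-type (grey) and 5 knockout (red) libraries on linear axes starting at 0; squares are libraries with Y-linked transcripts, circles libraries with Xist, and bars the group means. Apart from Tmem173, where Sham_KO_2347 at 1.06 FPKM lies above Sham_Wt_2224 at 0.843, the groups do not overlap in these genes.

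Antigen presentation by class I molecules was lower with them. Of 24 tested genes of class I presentation, 16 were called lower and none higher, with a median of -0.69. Nlrc5, the transactivator of class I genes, measured 4.24, 5.17, 5.87, 5.15 and 5.33 FPKM in wild type and 2.05, 2.26, 2.56, 2.70 and 2.41 in knockout (-0.96 ± 0.10, adjusted p = 0.000403). Tap1, part of the peptide transporter, fell from 12.8 ± 2.25 to 6.31 ± 0.381 FPKM (SD, n = 5 each), and H2-Q4, a non-classical class I gene of a family that shares reads, from 33.7 ± 5.82 to 13.8 ± 2.13. Class II presentation did not show such a count, with 1 of 7 tested genes called lower and a median of 0.01. Cd74, the invariant chain and the most abundant of them, measured 49.3 to 114 FPKM in wild type and 82.0 to 102 in knockout (0.20 ± 0.18, adjusted p = 0.568). Whether class I and class II genes differed from each other was not tested.

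Some genes of cell death were lower, and few of inflammation. Of 21 cell death genes, 7 were called lower and none higher, beside 3.73% and 2.67% of all tested genes. Ripk3 and Mlkl, the kinase and the pore-forming effector of necroptosis, measured 1.56 ± 0.231 and 4.38 ± 1.18 FPKM in wild type and 0.652 ± 0.0992 and 1.65 ± 0.574 in knockout (SD, n = 5 each), with adjusted p = 0.00156 and 0.0121. Gsdmd, the pore protein of pyroptosis, fell by 0.53 ± 0.10. Among 22 tested genes for cytokines, chemokines and other NF-kB targets, 2 were called lower, Ccl2 and Il1b, beside 3.73% of all tested genes. Ccl2, the monocyte chemoattractant, measured 2.41, 2.06, 4.40, 1.78 and 5.88 FPKM in wild type and 0.823, 0.187, 0.850, 0.614 and 1.04 in knockout (-1.60 ± 0.31, adjusted p = 0.0155). Il1b fell by 0.91 ± 0.20, and its adjusted p was 0.0504 to 0.067 without any 1 of Sham_Wt_2227, Sham_Wt_2229 and Sham_KO_2349; without Sham_Wt_2224, 4 genes of the list were called lower, and as TPM 5. Of 28 acute phase genes, 2 were called lower, again beside 3.73% of all tested genes. Hamp, the iron hormone hepcidin, measured 2715, 2613, 5194, 2764 and 2689 FPKM in wild type and 1147, 966, 1134, 2186 and 1012 in knockout (-1.32 ± 0.26, adjusted p = 0.0137), and 1 library of each group stood well above its fellows. Hpx, the haem scavenger haemopexin, fell by 0.73 ± 0.15 (adjusted p = 0.0507 without Sham_Wt_2227).

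The circadian clock of liver is a loop in which BMAL1 (Arntl) with CLOCK or NPAS2 switches on the Per, Cry, Nr1d and Dbp genes through E-boxes, and the products of Per, Cry and Nr1d switch the loop off again. Each of these genes is known to rise and fall over the day at its own phase. Of 21 tested core clock genes, 5 were called lower in knockout (Nr1d1, Nr1d2, Dbp, Tef and Per3) and 5 higher, Arntl, Npas2, Cry1 and Nfil3 among them. The 5 lower genes included both REV-ERB repressors and the activators Dbp and Tef of the D-box, and the 5 higher ones included both the BMAL1 gene and its partner Npas2. Dbp was under 0.5 FPKM in all knockout libraries and so had passed the filter through wild type alone. Without Sham_Wt_2227, 2 were called lower and 3 higher.

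Nr1d1, encoding REV-ERBalpha, measured 19.7, 30.7, 21.3, 11.7 and 16.8 FPKM in wild type and 9.24, 3.35, 4.21, 2.31 and 2.51 in knockout. The groups did not overlap, but Sham_KO_2347 stood above the other knockout libraries. The difference was -2.19 ± 0.35 (adjusted p = 0.00726). Nr1d2, encoding REV-ERBbeta, measured 9.64, 17.6, 13.4, 11.7 and 13.5 FPKM in wild type and 4.54, 3.89, 4.76, 2.60 and 2.80 in knockout (-1.70 ± 0.19, adjusted p = 0.000645). Dbp, whose transcript swings the most of the D-box factors over the day, measured 1.96, 8.81, 2.67, 0.798 and 2.52 FPKM in wild type and 0.313, 0.119, 0.0647, 0.488 and 0.208 in knockout. Its wild-type values were spread widely with Sham_Wt_2224 highest, and the difference of -2.10 ± 0.43 (adjusted p = 0.0203) reached 0.0533 without Sham_Wt_2227. Tef, the same kind of factor, also peaked in Sham_Wt_2224, at 14.7 FPKM beside 7.72 to 9.72 in the other wild-type libraries, and measured 4.30 to 6.99 in knockout (-0.79 ± 0.17, adjusted p = 0.0205, and 0.0525 without Sham_Wt_2227). Per3 measured 0.510 to 0.948 and 0.161 to 0.503 FPKM (-0.60 ± 0.15, adjusted p = 0.0437, between 0.0639 and 0.093 after removal of any 1 of 8 libraries).

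On the rising side, Arntl measured 3.53, 2.17, 1.62, 2.81 and 1.46 FPKM in wild type and 4.81, 4.19, 4.77, 3.82 and 5.18 in knockout (0.89 ± 0.19, adjusted p = 0.0193, and 0.0513 without Sham_Wt_2227). Cry1, a repressor that acts late in the cycle, measured 5.59, 3.01, 3.05, 3.04 and 1.93 FPKM in wild type and 9.75, 9.72, 6.01, 13.5 and 12.4 in knockout (1.51 ± 0.25, adjusted p = 0.00807). In these genes, as in Nfil3 and Npas2, Sham_Wt_2223 was the wild-type library nearest to the knockout libraries. Nfil3, the repressor at the D-box, measured 23.6, 12.3, 13.0, 12.5 and 8.28 FPKM in wild type and 38.9, 31.5, 26.2, 28.6 and 28.4 in knockout (1.18 ± 0.22, adjusted p = 0.0135). Npas2 measured 2.52, 0.643, 0.883, 1.30 and 0.5 FPKM in wild type and 2.68, 3.51, 1.91, 3.98 and 3.62 in knockout (1.21 ± 0.29, adjusted p = 0.0342, between 0.0554 and 0.0865 after removal of any 1 of 8 libraries).

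The remaining core clock genes did not pass. Per1 measured 1.14, 2.59, 5.43, 5.95 and 7.30 FPKM in wild type and 1.99, 1.36, 2.39, 8.48 and 8.4 in knockout, so that in both genotypes the libraries carrying Xist were above those carrying Y-linked transcripts (-0.10 ± 0.58, adjusted p = 0.946). Per2 measured 0.936 to 1.5 and 1.14 to 3.37 FPKM (adjusted p = 0.201), and Clock, at 0.42 ± 0.12, had an adjusted p of 0.0551. Bhlhe40, a further repressor, differed by -0.83 ± 0.28 (adjusted p = 0.106). For Cry2, Rora, Hlf, Csnk1d, Csnk1e and Timeless the differences lay between -0.08 and 0.12. Of 29 clock output genes of liver, 4 were called higher and 1 lower, beside 2.67% and 3.73% of all tested genes. As TPM, and without any 1 of Sham_Wt_2224, Sham_Wt_2228, Sham_KO_2349 and Sham_KO_2353, 2 were called higher. Of the 16 core clock genes with a promoter window, 3 held the E-box CACGTG (18.8%), beside 11.9% of tested genes with a window and 7.15% of all windows. The D-box TTATGTAA or its reverse TTACATAA was held by 2 (12.5%), beside 0.733% of tested genes with a window and 0.938% of all windows. E-boxes are shown for Cry1, which was high, and Tef, which was low, with the motif in capitals.
Cry1, chr10:85185089-85185134, minus strand: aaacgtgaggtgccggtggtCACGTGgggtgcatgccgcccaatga
Tef, chr15:81802526-81802571, plus strand: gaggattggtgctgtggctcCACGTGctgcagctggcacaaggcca
Since the labels used here do not state the hour at which each liver was taken, a difference in hour and a difference in genotype cannot be told apart for these genes.

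**Figure D4:**
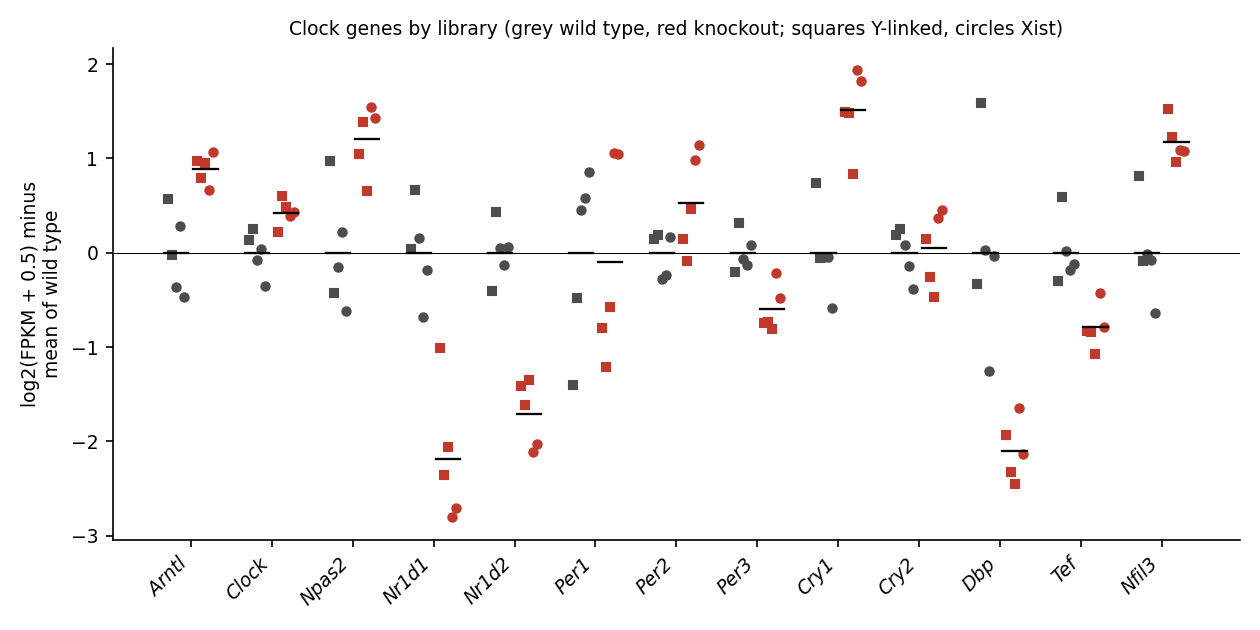
Level of 13 clock genes in each library as log2(FPKM + 0.5) minus the wild-type mean of that gene; grey wild type, red knockout, squares libraries with Y-linked transcripts, circles libraries with Xist, bars group means. The means of Nr1d1, Nr1d2 and Dbp lie 1.70 to 2.19 below wild type, those of Cry1 and Nfil3 more than 1 above, and Per1 is higher in the libraries with Xist in both genotypes.

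The largest increase named by the rule was that of Cdkn1a, encoding the cell cycle inhibitor p21. It measured 2.21, 2.43, 1.66, 3.29 and 2.99 FPKM in wild type and 10.0, 22.4, 17.3, 25.3 and 12.0 in knockout. Every knockout library was above every wild-type library by several fold, and the means of 2.52 ± 0.646 and 17.4 ± 6.56 FPKM (SD, n = 5 each) differed 6.91-fold (2.51 ± 0.26, adjusted p = 0.000556). The difference was 2.53 within the libraries carrying Y-linked transcripts and 2.55 within those carrying Xist. Cdkn1a lies on chromosome 17 from 29090976 to 29100727 on the plus strand. Other p53 targets did not follow as a list. Of 26 tested p53 target and growth arrest genes, 2 were called higher and 1 lower, beside 2.67% and 3.73% of all tested genes. Their median was -0.01. As TPM, or without any 1 of 9 libraries (all but Sham_KO_2347), 1 was called higher. The lower one was Trp53inp1, a p53-induced regulator of stress and autophagy, at 21.6 ± 6.91 and 10.1 ± 1.36 FPKM (SD, n = 5 each; adjusted p = 0.0137).

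Part of the cell cycle genes was lower in knockout. Of 22 tested, all had differences below 0 and 9 were called lower and none higher, with a median of -0.55; 1 of the 9 had passed the filter through wild type alone. Without Sham_Wt_2227, 5 were called, and with all 20 libraries in the fit 1. Mki67, a marker of dividing cells, measured 1.05, 1.04, 1.38, 0.926 and 1.1 FPKM in wild type and 0.150, 0.240, 0.128, 0.575 and 0.557 in knockout. Top2a, a topoisomerase of dividing cells, measured 0.809 to 1.08 and 0.0552 to 0.615 FPKM. In both genes the 3 knockout libraries carrying Y-linked transcripts were below the 2 carrying Xist, and no knockout library reached wild type. Their differences were -0.98 ± 0.18 (adjusted p = 0.00981) and -0.97 ± 0.19 (adjusted p = 0.0144). The replication licensing genes Mcm3 and Mcm5 had differences of -0.78 ± 0.14 and -0.84 ± 0.17.

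Some genes of fatty acid oxidation under PPARalpha, the nuclear receptor that is active in fasting, were higher. Of 43 tested targets and oxidation genes, 8 were called higher and none lower, beside 2.67% and 3.73% of all tested genes. In all, 38 differences were above 0, and the median was 0.36. As TPM 3 were called, and the count was 4 or 5 without any 1 of Sham_Wt_2223, Sham_Wt_2224, Sham_Wt_2227, Sham_Wt_2228, Sham_Wt_2229, Sham_KO_2347 and Sham_KO_2349. Within the libraries carrying Xist the median was 0.17, with 2 called higher and 1 lower. Within those carrying Y-linked transcripts it was 0.44, with none called. Hepatocyte markers were shifted the same way, with 19 of 20 differences above 0 and a median of 0.29. The part of a general rise of hepatocyte transcripts was not tested. Acot1, a cytosolic acyl-CoA thioesterase, measured 6.42, 10.0, 9.03, 14.5 and 9.95 FPKM in wild type and 32.8, 47.7, 21.8, 40.9 and 51.9 in knockout (1.89 ± 0.25, adjusted p = 0.0023), in a family of near-identical paralogs that may share reads. Plin5, a lipid droplet protein that links droplets to mitochondria, measured 18.9 to 31.1 FPKM in wild type and 44.6 to 90.3 in knockout (1.28 ± 0.20, adjusted p = 0.00474). Neither overlapped between the groups. Cpt2, a mitochondrial carnitine transferase, was raised by a smaller amount, from 70.1 ± 6.98 to 102 ± 2.53 FPKM (SD, n = 5 each). Lipogenic genes were not raised or lowered as a list. Beside 2.67% and 3.73% of all tested genes, 1 of 27 tested was called higher and 1 lower. The lower one was Srebf1, the transcription factor of fatty acid synthesis, at 63.1, 29.6, 34.3, 28.8 and 49.2 FPKM in wild type and 16.6, 10.7, 15.5, 17.1 and 20.1 in knockout (-1.29 ± 0.23, adjusted p = 0.0106). Fasn, its target for palmitate synthesis, named after its value was seen, differed by -0.47 ± 0.14 and did not pass (adjusted p = 0.0707).

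Heat shock chaperones were higher. All 15 tested members had differences above 0, with a median of 0.54, and 7 were called higher, 5 as TPM and 4 without Sham_Wt_2224. Hspa8, the constitutive HSP70, measured 184, 172, 206, 241 and 233 FPKM in wild type and 423, 443, 380, 412 and 416 in knockout. Its knockout libraries spanned a narrow range well above wild type (1.01 ± 0.11, adjusted p = 0.000645). Hsph1, an HSP110 nucleotide exchange factor, measured 5.21, 4.82, 5.38, 5.84 and 7.79 FPKM in wild type and 12.5, 17.1, 13.3, 13.8 and 18.3 in knockout (1.30 ± 0.14, adjusted p = 0.000629). Hsp90aa1, the inducible HSP90, measured 34.5 to 54.1 and 60.4 to 119 FPKM (1.11 ± 0.18). Hspb1, the small chaperone HSP27, differed by 1.36 ± 0.29 (adjusted p = 0.0224, and 0.0507 to 0.0535 without any 1 of Sham_Wt_2224, Sham_KO_2349 and Sham_KO_2353). The cold-inducible RNA-binding genes Cirbp and Rbm3, which belong to no list and were named after their values were seen, were lower, from 9.22 ± 1.44 to 4.13 ± 0.717 and from 8.38 ± 1.68 to 4.07 ± 0.798 FPKM (SD, n = 5 each), with adjusted p = 0.00145 and 0.00453. None of 25 tested genes of the unfolded protein and integrated stress response passed in either direction.

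Other genes with large increases by the rule belonged to intermediary metabolism and matrix. Acmsd, the enzyme that diverts tryptophan breakdown away from NAD synthesis, measured 5.42 ± 1.35 and 16.5 ± 5.53 FPKM, Pfkfb1, the liver enzyme that sets fructose-2,6-bisphosphate, 5.81 ± 1.38 and 14.9 ± 1.35, and Chka, a choline kinase, 5.45 ± 2.13 and 13.7 ± 2.65 (wild type and knockout, SD, n = 5 each). Loxl4, a lysyl oxidase-like enzyme, measured 0.969 to 2.72 FPKM in wild type and 3.02 to 11.9 in knockout (1.61 ± 0.32, adjusted p = 0.0169, and 0.0501 without Sham_Wt_2227). Nr4a1, an immediate early nuclear receptor, went the other way, at 4.06, 3.09, 2.55, 1.55 and 1.14 FPKM in wild type and 0.616, 0.547, 0.515, 0.398 and 0.763 in knockout (-1.39 ± 0.25, adjusted p = 0.00995).

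Bile acid genes, which the ligation arm of the study is about, held few calls. Of 28 tested genes of bile acid synthesis and transport, 3 were called lower and 1 higher, beside 3.73% and 2.67% of all tested genes, and the median was -0.02. Without any 1 of Sham_Wt_2224, Sham_Wt_2227, Sham_Wt_2228, Sham_KO_2347, Sham_KO_2349 and Sham_KO_2350, 1 was called lower. Abcg8, which with Abcg5 exports sterols into bile, measured 26.7, 34.4, 46.3, 33.5 and 36.6 FPKM in wild type and 16.1, 17.0, 15.8, 21.6 and 21.8 in knockout (-0.92 ± 0.15, adjusted p = 0.00567), without overlap. Abcg5, the canalicular exporter Abcc2 and the corepressor gene Nr0b2, encoding SHP, had differences of -0.91, -0.57 and 0.89 with adjusted p = 0.0434, 0.0435 and 0.041, and removing any 1 of 7, 9 and 8 libraries took these above 0.05, to at most 0.0983, 0.107 and 0.0962. Of 33 drug metabolism enzymes none was called, and differences ranged from -1.93 to 0.92.

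Markers of cell types were read in the same libraries, since a lower level in whole liver can come from fewer cells of a type or from less RNA per cell, which cannot be told apart here. The 20 hepatocyte markers summed to 61930 to 82346 FPKM in wild type and 69473 to 92445 in knockout. Of these, 2 were called higher as deposited and none as TPM. Among the 20, 19 had differences above 0, with a median of 0.29 as deposited and 0.14 as TPM. The 14 Kupffer cell markers summed to 370 to 606 and 260 to 405 FPKM, and of 13 tested 2 were called lower, Cd5l and Slc40a1. Of the 13, 12 had differences below 0. Their median was -0.38, beside 0.02 over all genes, and -0.53 as TPM, beside -0.10. Cd5l, a secreted macrophage protein, measured 92.9, 87.4, 155, 127 and 127 FPKM in wild type and 38.4, 48.9, 36.0, 58.0 and 48.5 in knockout (-1.34 ± 0.18, adjusted p = 0.00201). Slc40a1, the iron exporter ferroportin, fell by 0.66 ± 0.15 (adjusted p = 0.0236, and 0.0521 to 0.0645 without any 1 of Sham_Wt_2224, Sham_Wt_2227, Sham_Wt_2229 and Sham_KO_2349). Clec4f, a defining Kupffer cell lectin named outside the rule for naming genes, measured 56.3 to 87.6 and 47.9 to 75.5 FPKM and was not called. The part of Kupffer cell number in the lower interferon-stimulated genes was not tested.

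Among recruited and circulating cells the values were small. The 14 monocyte and recruited macrophage markers summed to 57.0 to 112 FPKM in wild type and 80.1 to 134 in knockout. Most of these sums came from Lyz2, at 28.6 to 71.5 and 44.3 to 97.3 FPKM, and from Spp1, which is also in the cholangiocyte list. Of the 14, 8 stayed under 0.5 FPKM in all 10 libraries, Ccr2 among these at no more than 0.435. Of 5 tested, Ly6c2 and Fcgr1 were called lower, Ly6c2 from 0.930, 0.635, 1.54, 0.828 and 1.48 FPKM to 0.0263, 0.104, 0.165, 0.325 and 0.227, and Fcgr1, the high-affinity IgG receptor, with a difference of -1.08 ± 0.20. Ly6c2 passed the filter on low values through wild type alone. Of all tested genes 3.73% were called lower. The other 3 tested markers, Lyz2, Spp1 and Cd9, had differences above 0, and the median of the 5 was 0.16. Of the plasmacytoid dendritic cell markers, Siglech did not exceed 0.207 FPKM, and nearly all of that list's sum was Bst2. The 10 neutrophil markers summed to 3.04 to 13.7 and 3.06 to 4.06 FPKM, with no call among 3 tested, and the 14 T and NK cell markers to 6.54 to 9.55 and 4.97 to 8.14, with 1 of 4 called lower. Cholangiocyte, endothelial and stellate cell lists had 0 of 6, 0 of 14 and 1 of 12 called, with sums of 30.5 to 35.5 and 35.3 to 40.8, 78.5 to 97.8 and 89.6 to 121, and 41.9 to 59.0 and 41.7 to 62.1 FPKM.

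Igkc, Jchain and haemoglobin transcripts were higher in knockout, while most B and plasma cell markers were not. Of 7 tested B and plasma cell markers 2 were called higher and none lower, 5 differences were below 0, and the median was -0.17. Igkc, the kappa light chain constant region, measured 9.94, 6.04, 13.6, 8.30 and 16.3 FPKM in wild type and 30.5, 24.2, 23.9, 44.8 and 25.2 in knockout (1.45 ± 0.26, adjusted p = 0.0112). Jchain, which joins IgA and IgM, differed by 0.79 ± 0.19 (adjusted p = 0.0318, between 0.0548 and 0.0831 after removal of any 1 of 5 libraries). Mzb1, a chaperone of antibody assembly named after its values were seen, measured 0.331 to 0.722 FPKM in wild type and 0.0785 to 0.637 in knockout and was not called. The 10 B and plasma cell markers summed to 11.3 to 23.8 and 29.3 to 53.5 FPKM, most of it Igkc. Haemoglobin genes Hba-a1, Hbb-bs and Hbb-bt differed by 1.03, 0.78 and 1.04 (adjusted p = 0.0235, 0.0287 and 0.0224), each losing its call without any 1 of 4, 7 and 4 libraries. The 11 blood, pancreas and fat markers summed to 96.9 to 182 and 181 to 340 FPKM, with the pancreatic gene Prss1 and the fat genes Lep and Cidea at 0 throughout. The part of blood left in the tissue in the other differences was not tested.

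The same 813 genes were then looked up in the ligated libraries, which are separate libraries, in a fit of all 4 groups. Over all tested genes 1003 (7.89%) were called between ligated knockout and ligated wild type, and the difference between the sham effect and the ligated effect was called for 46 (0.362%). Of the 474 genes lower after sham surgery, 374 (78.9%) were also below wild type after ligation. Among the 474, 184 were called lower there, while 4 were called higher. Of the 339 genes higher after sham surgery, 256 (75.5%) were also above wild type and 50 were called higher, while 7 were called lower. Over all tested genes the sign was the same under both surgeries for 63.6%. The median difference of the 339 higher genes after ligation was 0.20, beside 0.54 after sham surgery. That of the 474 lower genes was -0.43 beside -0.69. These genes were chosen by their difference after sham surgery, so the medians are not compared on equal terms. The ligated knockout libraries BDL_KO_2248 and BDL_KO_2359 had FPKM sums of 524471 and 480917, beside 315016 to 361980 in the other ligated libraries. Without these 2 libraries, 144 of the 474 and 42 of the 339 were called in the same direction.

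Interferon-stimulated genes were low in knockout under both surgeries. In the 5 lists 96 of 116 tested members were called lower after ligation, beside 7.89% of all tested genes called in either direction. Their median was -1.56 beside -0.91 after sham surgery. The difference of the effects was called for 5, beside 0.362% of all tested genes. Irf7 was -2.79 ± 0.32 after ligation and -2.71 ± 0.15 after sham surgery, and the difference of 0.08 ± 0.46 did not pass (adjusted p = 0.967). Here and below, standard errors after sham surgery come from the fit of the 10 sham libraries. Those after ligation and of the difference come from the fit of all 4 groups, so the 2 kinds are not on equal terms. Irf9 was -1.41 ± 0.11 after ligation beside -0.59 ± 0.09, and here the difference passed (0.82 ± 0.15, adjusted p = 0.0322). Slfn4 and Ly6c2 likewise had larger differences after ligation, at -3.90 ± 0.33 and -3.21 ± 0.29. The differences between the surgeries, 2.38 ± 0.47 and 1.99 ± 0.42, were called (adjusted p = 0.034 and 0.0407, and 0.0527 and 0.0668 without the 2 libraries named above). Both genes were under 0.5 FPKM in all sham knockout libraries and low in sham wild type. This bounded how far they could fall after sham surgery on the log2(FPKM + 0.5) scale.

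Single genes of other groups differed between the surgeries. Cdkn1a, 2.51 after sham surgery, was -0.53 ± 0.44 after ligation, and the difference of 3.05 ± 0.62 was called (adjusted p = 0.0362, and 0.0114 without the 2 libraries). Srebf1 changed sign, from -1.29 ± 0.23 to 1.25 ± 0.29, with a called difference of -2.54 ± 0.42 (adjusted p = 0.0189). Fasn also changed sign, from -0.47 to 1.36, with a called difference of -1.83. Among core clock genes 1 of 21 was called after ligation, beside 7.89% of all tested genes called there in either direction. Nr1d1 was at -0.63 ± 0.63 and Cry1 at 0.89 ± 0.35. The difference between the surgeries was called for none of the 21, beside 0.362% of all tested genes. Of the heat shock chaperones 2 of 15 were called higher after ligation and none lower, beside the same 7.89%. Their median was 0.03, and again none had a called difference between the surgeries. Of 22 cell cycle genes none was called after ligation in either direction, again beside 7.89% of all tested genes. Their median was 0.13 beside -0.55 after sham surgery, and the difference between the surgeries was called for none. Acot1 was at -0.31 ± 0.40 after ligation (adjusted p of the difference 0.131). For these genes an effect under sham surgery and not after ligation is therefore not shown to differ between them. Igkc was higher in both, at 1.68 ± 0.32 after ligation.

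**Figure D5:**
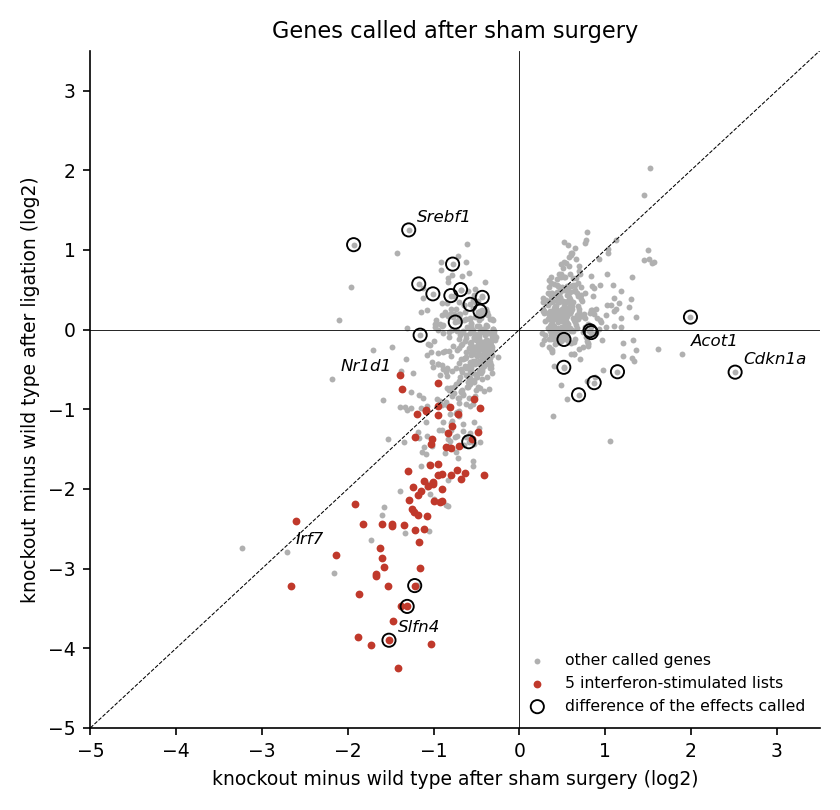
Knockout minus wild type after sham surgery (x axis) and after ligation (y axis), both in log2(FPKM + 0.5), for the 813 genes called after sham surgery; red points are members of the 5 interferon-stimulated lists, rings mark the 25 genes whose difference between the surgeries was called, and the dashed line marks equal effects. Interferon-stimulated genes lie in the lower left, most of them below the dashed line, while Cdkn1a and Srebf1 lie in opposite quadrants.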

How the data were processed

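Of 20 libraries of liver RNA, 10 are compared here, in groups taken from the sample titles. The authors deposited 1 table of FPKM values, 1 column per library; per the submitters' processing notes, which give no order, the tools included DESeq2 1.20.0 and featureCounts 1.5.0-p3, beside fastp, CASAVA 1.8 and HISAT2 2.0.5, and the builds were GRCm38 and mm10. No release of the gene annotation is named there. Multiplied by exonic length (GENCODE M21, matched for 99.3% of tested genes), 97.9 to 98.4% of low values per library were whole multiples of 1 fragment (tolerance 0.02), which gave the depth. Titles number the libraries but do not say that they come from separate animals, so p-values measure the spread between libraries.

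Values were analysed as log2(FPKM + 0.5) with limma 3.58.1 in R 4.3.3, with moderated variances (trend, robust) and Benjamini-Hochberg adjustment over the 12714 genes at a threshold of 0.05; Tmem173 was also compared over the 252 splits of an exact permutation test. A fit of all 4 groups gave the effect after ligation and the difference of the effects, coded as sham minus ligated. The fit was tested on simulated data with planted changes. Tables were made in Python 3.11.15 (numpy 2.4.6, pandas 2.3.3) and figures with matplotlib 3.10.9.

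The comparison, its 45 gene lists and the tests were chosen with earlier results of these data known, so counts over lists are descriptions. Genes named are a subset of the following. First came Tmem173 and Nnt, then the 10 strongest rises and 10 strongest falls of protein-coding genes. These rises and falls were called, without overlap, and at 1 FPKM or more on average in either genotype. Each list gave up to 4 called members with the smallest p, or its 2 most abundant where fewer than 2 were called. The core clock genes were also included. Other genes are marked in the text, or are named only to describe a list of markers or of interferon genes. Alternatives were pseudocounts of 0.1 and 1, no filter or 1 FPKM, TPM, median-ratio scaling, quantile normalization, no robust estimation, array weights, all 20 libraries in the fit, library type (Y-linked transcripts or Xist) as a covariate or alone, voom on recovered fragments, and removal of each library. Some members are not reported here.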

Additional observations from a re-analysis of the deposited data

Results flagged for a closer look

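Of 196 groups of 5 libraries looked at (98 genes in 2 genotypes), 14 held a library whose gap to the nearest other exceeded Dixon's 95% limit; chance flags about 1 in 20 groups. In 6 of them the high library was Sham_KO_2352: Oas3 at 0.629 FPKM (the others 0.275 to 0.356), Gbp3 at 6.07 (2.29 to 3.35), Ly6a at 17.2 (7.37 to 9.68), Rbm3 at 5.48 (3.56 to 3.95), Fasn at 35.0 (23.5 to 26.8) and Hamp at 2186 (966 to 1147). Sham_KO_2349 was low for Irf9, at 8.01 FPKM (9.05 to 9.39), and for Oasl1, at 3.30 (3.99 to 4.13). Sham_Wt_2224 was high for the clock genes Dbp, at 8.81 FPKM (0.798 to 2.67), and Tef, at 14.7 (7.72 to 9.72). The remaining 4 were Irf9 in Sham_Wt_2229 at 17.2 FPKM (12.5 to 13.3), Hamp in Sham_Wt_2227 at 5194 (2613 to 2764), Nr1d1 in Sham_KO_2347 at 9.24 (2.31 to 4.21) and Pfkfb1 in Sham_KO_2350 at 17.2 (13.7 to 14.6).

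The knockout effect differed between sham surgery and ligation by the test of the difference itself (limma, sham minus ligated, n = 5 per group) for 6 named genes. It was 0.82 for Irf9, 2.38 for Slfn4, 1.99 for Ly6c2 and 3.05 for Cdkn1a, and -2.54 for Srebf1 and -1.83 for Fasn, on the log2(FPKM + 0.5) scale. For Slfn4 and Ly6c2, low values in both sham groups bounded the effect after sham surgery on this scale.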

How the results depend on the processing

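Depth limits genes under about 0.5 FPKM, interferon genes included, and 5 libraries per group limit the rest. The 813 calls (339 higher, 474 lower) became 483 with no filter (166 higher), 424 with all 20 libraries in the fit (185 higher, 239 lower), 33 with only libraries carrying Y-linked transcripts (7 higher, 26 lower) and 386 with only those carrying Xist (161 higher, 225 lower), and as TPM 115 were higher; the subsets by library type have fewer samples, and for the others the cause was not tested. Leaving out each library in turn gave 405 to 783 calls (151 to 323 higher, 254 to 460 lower), and 354 genes were called in all 10 of these fits. Among the 116 tested members of the interferon-stimulated lists the number called lower, 77 as reported, was 47 with all 20 libraries, 10 with Y-linked libraries only and 62 to 78 with each library left out, and 62 of the 77 kept their call in all 10. The Tmem173 difference stayed between -0.97 and -0.70 without each library. Among the genes named in the text, 84 calls became 49 with all 20 libraries, 17 with Y-linked libraries only and 50 with Xist libraries only, and between 66 and 82 without each library; none changed sign. Without BDL_KO_2248 and BDL_KO_2359 the differences between the surgeries called among the 813 genes rose from 25 to 64, and among all genes from 46 to 140. The other settings kept the counts over all genes within 1.5-fold, with 749 calls at a filter of 1 FPKM to 1084 with array weights. No paired analysis was possible because the groups share no replicate numbers.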
